A study of Vigna unguiculata with 30 samples.

Results

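The genes described are 171 cowpea gene models whose transcripts were less abundant in leaves at the R3 stage than at the R1 stage in each of 3 canopy positions. They were picked by their measured values. Levels are CPM, the count of a gene per 1e6 counts of its library's column total, and 0.5 CPM was added to each group mean. A member lay on 1 of the 11 chromosomes, had a mean of 3 to under 1000 CPM over 30 libraries, and had an R1 mean at least 1.6 times its R3 mean at the top, middle and bottom of the canopy. Its 3 R1 means also lay within 2.5 times of each other. Of 31948 gene models in the deposited table, 13707 met the conditions on position, level and evenness at R1, and the 171 members are 1.25% of those. The same rule turned round, with R3 over R1, gave 88 rising genes.

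Leaf punches came from greenhouse cowpea (Vigna unguiculata) of the line IT97K-499-35, with no transgene and no treatment named. Each of 6 groups had 5 libraries of polyA RNA: top R3, top R1, middle R3, middle R1, bottom R3 and bottom R1. R3 leaves were taken 6.5 weeks and R1 leaves 5.5 weeks after planting, so that stage, plant age and harvest occasion cannot be told apart. The libraries are named biological replicates, and whether the positions of 1 number share a plant is not stated. The study's title concerns native cowpea promoters, and the stage comparison shows which genes differ in leaf level between the R1 and the R3 harvest.

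In the stage scale used for grain legumes such as soybean, R1 marks the first open flowers and R3 the first young pods. Over this time leaves begin to feed pods beside new vegetative growth, which was not measured here. New leaves form at the shoot tip, so a position in the canopy combines leaf age with shade. Punches are bulk tissue, and fewer cells of a type and less RNA per cell cannot be told apart. No table used here pairs the identifiers with gene names, so the members are given by identifier, position and gene structure, and the leaf label was not checked against marker genes. The identifiers carry the annotation version 1.2, no source used here names the genome build, and coordinates are those of the deposited table.

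Library totals ran from 10.5 to 17.4 M counts (median 12.7 M, with M for 1e6). The members held 0.384% ± 0.108 of all counts in top R3 and 0.777% ± 0.0466 in top R1 leaves (SD, n = 5 each). They held 0.4% ± 0.116 in middle R3 and 0.838% ± 0.101 in middle R1 leaves. In bottom R3 leaves the share was 0.349% ± 0.157, and in bottom R1 leaves it was 0.791% ± 0.0669. These shares follow from the rule and are a description. A score was computed per library as the mean over members of log2 CPM on library sizes scaled by TMM, with each gene centred over the 30 libraries. It was −0.21, 0.22, −0.34, −0.55 and −0.58 in top R3 replicates 1 to 5, and 0.57, 0.71, 0.64, 0.77 and 0.56 in top R1. In middle R3 it was 0.21, −0.14, −0.58, −1.07 and −0.61, and in middle R1 it was 0.61, 0.58, 0.76, 0.86 and 0.54. In bottom R3 it was −0.58, −0.33, −1.01, −1.54 and −1.34, and in bottom R1 it was 0.38, 0.07, 0.33, 0.61 and 0.44. At no position did the R3 and R1 scores overlap. The rule favours this separation, so it too is a description. The R3 libraries were the more spread at each position, with SDs of 0.32, 0.49 and 0.51 for top, middle and bottom R3 against 0.09, 0.14 and 0.20 for top, middle and bottom R1.

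**Figure D1:**
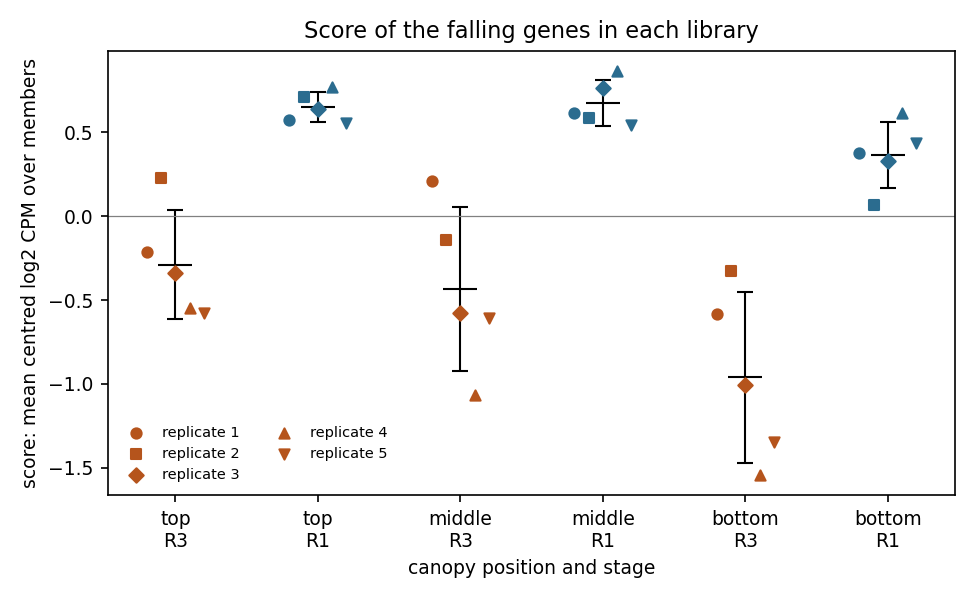
Score of the 171 falling genes (mean centred log2 CPM, TMM-scaled) in each of 30 libraries, by canopy position and stage; symbols are replicates, bars are the mean ± SD of 5. The R3 libraries lie below the R1 libraries of their position, which the rule favours. Bottom R3 is lowest at −0.96 ± 0.51, and replicates 1 and 2 hold the highest R3 scores.

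Within R3 the same replicate numbers were high at each position, which was noticed after the scores were computed. At each position the highest R3 scores were those of replicates 1 and 2. Gene by gene, replicates 1 and 2 were the highest of the 5 R3 libraries for 89 members in top, 100 in middle and 81 in bottom leaves, or 52%, 58.5% and 47.4%. The same held for 22.8%, 10.6% and 14.3% of the 13707 genes even at R1. For 44 members (25.7%) it held at all 3 positions, against 1.11% of the 13707. Among the 88 rising genes the shares were 18.2% in top, 2.27% in middle and 2.27% in bottom leaves, and 0% at all 3 positions. At R1, replicate 1 was the lowest of 5 for 43 members in top, 64 in middle and 55 in bottom leaves (25.1%, 37.4% and 32.2%), against 8.66%, 21.9% and 27.8% of the 13707. For the rising genes it was 18.2%, 54.5% and 52.3%, so in middle and bottom leaves this was not particular to the members. At all 3 positions replicate 1 was the lowest for 26 members (15.2%), beside 1.61% of the 13707 and 6.82% of the rising genes. The labels tie no date or batch to these numbers, and their part in the fall was not tested.

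The members' means over all libraries ran from 3.17 to 331 CPM, with 57 under 10, 102 from 10 to under 100 and 12 at 100 or more. The R1 mean over the R3 mean ran from 1.6 to 4.66 in top (median 1.89), from 1.6 to 5.79 in middle (median 1.96) and from 1.61 to 7.63 in bottom leaves (median 2.13). The ratio reached 2 in 64 members in top, 75 in middle and 100 in bottom leaves, and in all 3 for 34. It reached 4 in 3, 3 and 15 members, and in all 3 for 1. The ratio was largest in bottom leaves for 95 members, in top for 48 and in middle for 28. Within each member the 5 R3 values were all below the 5 R1 values for 71 members in top, 70 in middle and 74 in bottom leaves, where 4.67%, 3.87% and 4.85% of the 20284 genes tested showed that separation. In all 3 positions it held for 20 members (0.306% of genes tested), and in none for 43. The rule used these values, so nothing is read from those counts.

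**Figure D2:**
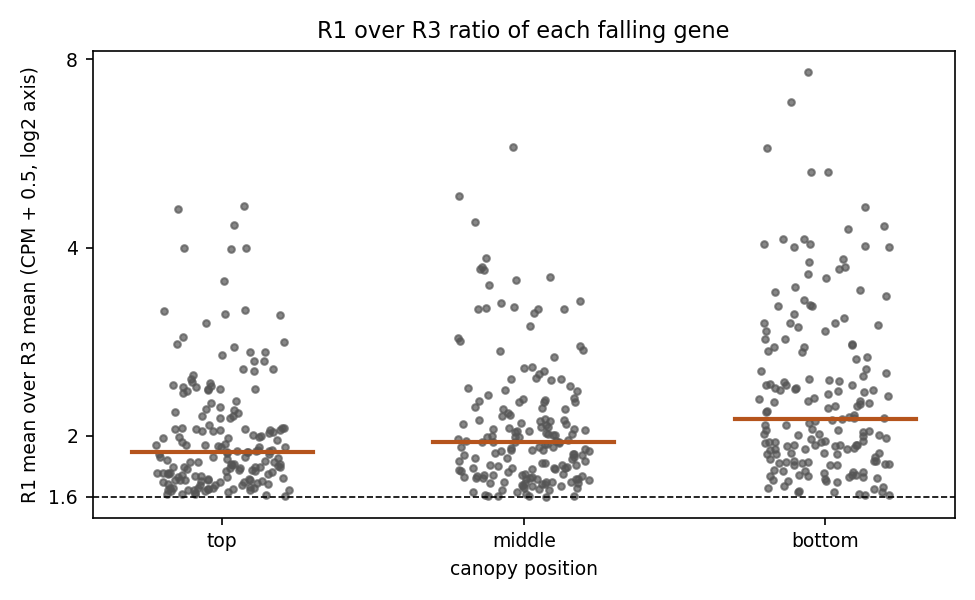
R1 mean over R3 mean (CPM + 0.5, log2 axis) of each of the 171 falling genes at the top, middle and bottom of the canopy; thick lines are medians (1.89, 1.96 and 2.13) and the dashed line is the 1.6 of the rule. The bottom column reaches highest, to 7.63.

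Vigun11g160700 and Vigun03g073100 had the highest CPM among the 20 members without overlap at any position. Vigun11g160700, with 12 exons on chromosome 11 (36806894 to 36813892, plus strand), had 65.5, 94.03, 64.2, 57.6 and 62.2 CPM in top R3 and 104, 99.96, 125, 135 and 138 CPM in top R1 leaves. In middle R3 leaves it had 97.97, 90.97, 70.6, 52.2 and 69.6 CPM, and in middle R1 136, 121, 137, 199.6 and 171 CPM. In bottom R3 it had 63.7, 80.96, 47.9, 32.6 and 40.6 CPM, and in bottom R1 99.7, 102, 123, 169 and 151 CPM. Every R3 library lay below every R1 library of its position, and the gap was narrowest in the top, where R3 replicate 2 came close to R1 replicate 2. Its R3 over R1 log2 fold changes from edgeR were −0.63 ± 0.23 in top, −0.95 ± 0.23 in middle and −1.26 ± 0.24 in bottom leaves. Vigun03g073100, with 7 exons on chromosome 3 (6036081 to 6038363, minus strand), averaged 62.7 ± 13.6 CPM in top R3 and 121 ± 20.6 CPM in top R1 leaves (SD, n = 5 each). In bottom R3 leaves it had 34.9, 70.6, 28.1, 7.42 and 10.99 CPM, and in bottom R1 74.8, 76.3, 115, 147 and 137 CPM. Bottom R3 replicate 2 stood just under the lowest bottom R1 libraries, while replicates 4 and 5 were far below.

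The single-exon model Vigun10g163200 on chromosome 10 (38219532 to 38221859, plus strand) had the highest mean of all members, 331 CPM over the 30 libraries, and also the highest level per exon length, 142 CPM per kb. It had 154, 177, 186, 173 and 152 CPM in top R3 and 393, 331, 328, 346 and 331 CPM in top R1 leaves. In middle R3 it had 234, 181, 206, 253 and 243 CPM, and in middle R1 425, 354, 475, 375 and 341 CPM. In bottom R3 it had 206, 539.6, 321, 272 and 301 CPM, and in bottom R1 667, 769.6, 661, 298 and 251 CPM. The stages were clearly apart in top and middle leaves. In bottom leaves they overlapped, since R1 replicates 4 and 5 were lower than R3 replicates 2 and 3. Vigun01g156300, with 12 exons on chromosome 1 (33854837 to 33862521, minus strand), came second by mean, at 259 CPM. In middle R3 it had 515, 329.5, 123, 82.3 and 177 CPM, and in middle R1 206, 631, 516, 498 and 541 CPM. Here R3 replicate 1 exceeded R1 replicate 1, and the groups overlapped.

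Vigun04g146600, a single-exon model of 871 bases on chromosome 4 (36182487 to 36183357, plus strand), was the 1 member with a ratio of 4 or more at every position. Its levels were 15.7, 19.7, 3.68, 3.64 and 4.82 CPM in top R3 and 22.6, 48.7, 25.2, 65.4 and 66.7 CPM in top R1 leaves. In middle R3 they were 41.6, 31.6, 10.9, 2.602 and 8.32 CPM, and in middle R1 18.9, 88.3, 86.5, 98.7 and 134 CPM. In bottom R3 they were 22, 41.9, 11.2, 1.09 and 3.93 CPM, and in bottom R1 13.1, 45.7, 78.8, 90.1 and 111 CPM. R3 replicates 1 and 2 were the highest R3 libraries and R1 replicate 1 the lowest R1 library at all 3 positions, and in middle and bottom leaves R3 replicate 1 lay above R1 replicate 1. The log2 fold changes, R3 over R1, were −2.11 ± 0.79 in top, −2.05 ± 0.78 in middle and −2.06 ± 0.78 in bottom leaves. Vigun06g042300, with 15 exons on chromosome 6 (16460460 to 16467976, minus strand), had the next largest smallest ratio, 3.48. Its bottom R3 levels were 5.83, 12.8, 1.798, 0.2302 and 0.642 CPM, and its bottom R1 levels 4.85, 14.2, 24.1, 22.6 and 30.1 CPM. The same libraries were high and low in this gene.

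The members with the largest ratios among those without overlap were named for each position. In top leaves they were Vigun09g140300 (ratio 4.66) and Vigun04g146600 (4.61). In middle leaves they were Vigun06g072000 (3.68) and Vigun07g076200 (3.28). For Vigun06g072000, with 16 exons on chromosome 6 (20281299 to 20289650, minus strand), top R3 levels were 36.4, 89.3, 32.9, 56.96 and 34.4 CPM and top R1 levels 198, 255, 236, 218 and 187 CPM. Middle R3 levels of Vigun06g072000 were 189.5, 143, 58.9, 69.6 and 48.4 CPM, and middle R1 levels 202, 397, 529.5, 384 and 369.8 CPM. The top groups were far apart, while in middle leaves R3 replicate 1 was close under R1 replicate 1. In bottom leaves the largest ratios without overlap were those of Vigun05g233900 (7.63) and Vigun10g079900 (5.77). Vigun05g233900, with 2 exons on chromosome 5 (42758094 to 42759176, plus strand), had 0.394, 1.09, 0.207, 0.748 and 0 CPM in bottom R3 leaves, where a count of 0 allows up to 0.241 CPM. In bottom R1 leaves it had 17.8, 1.83, 5.12, 8.52 and 1.95 CPM. All 5 R1 libraries were above the R3 libraries, and R1 replicate 1 was the highest. Vigun10g079900, with 2 exons on chromosome 10 (21828580 to 21830127, minus strand), averaged 3.904 ± 2.33 CPM in bottom R3 and 24.9 ± 14.9 CPM in bottom R1 leaves (SD, n = 5 each).

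**Figure D3:**
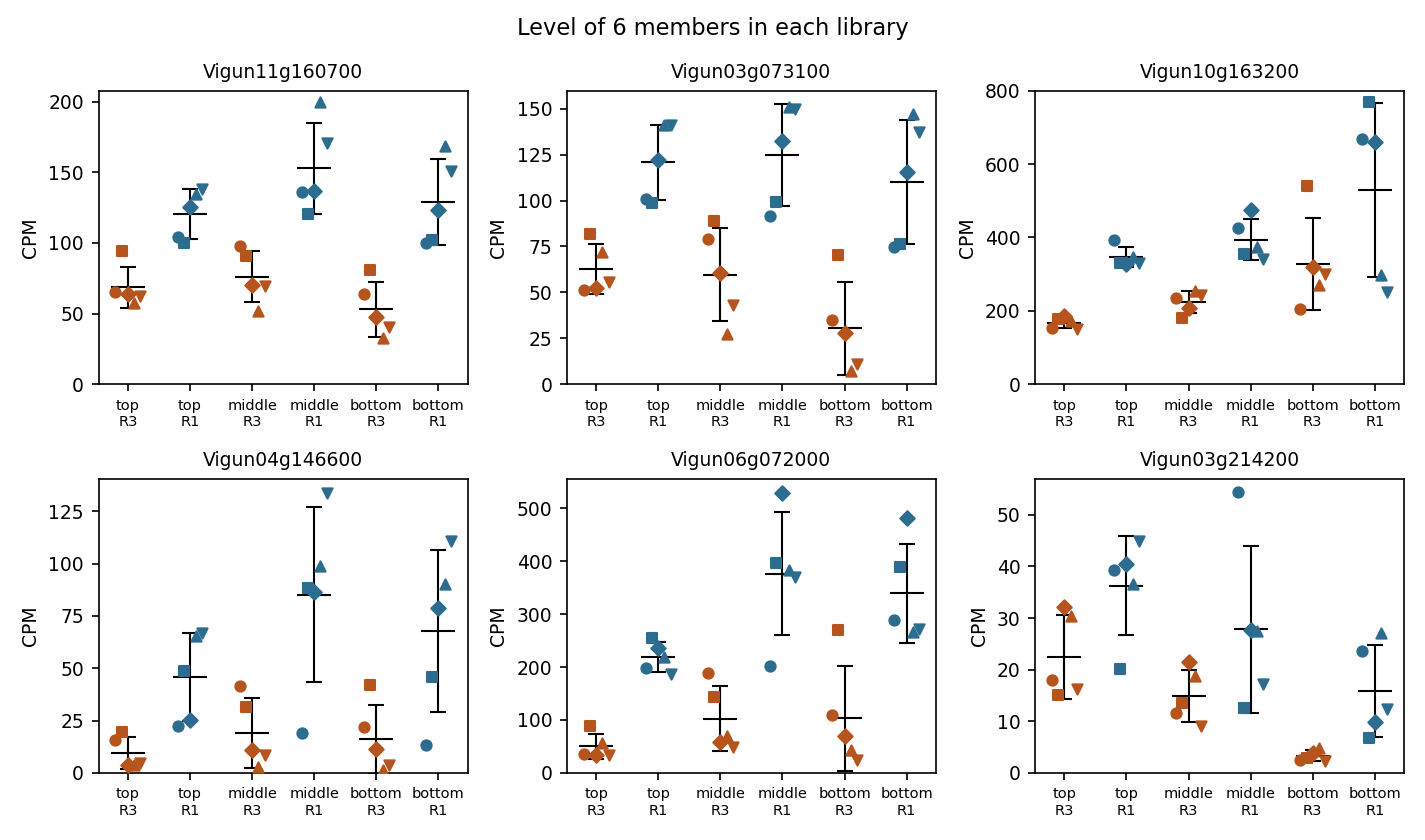
CPM of 6 falling genes in each of 30 libraries, by position and stage; symbols are replicates 1 to 5 (circle, square, diamond, triangle up, triangle down), bars are the mean ± SD. Vigun11g160700 and Vigun03g073100 have no overlap between stages at any position, whereas Vigun10g163200 overlaps in bottom leaves, and Vigun03g214200 is near 3.29 CPM in bottom R3.

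The members nearest the 1.6 limit were Vigun05g086400 and Vigun06g177900, both with a smallest ratio that rounds to 1.6. Just outside lay Vigun01g219500, with 1.5999 in middle leaves, and Vigun11g107000, with 1.5983 in top leaves. In all, 128 genes that met the other conditions had a smallest ratio from 1.5 up to the limit. Of 250 genes with the ratio at every position and the level asked for, 79 were left out because their R1 means differed by 2.5 times or more. With library sizes scaled by TMM the rule kept 101 genes, 96 of them among the 171. Top R3 libraries had TMM factors of 0.886 ± 0.043, against 1.00 ± 0.083 in top R1 libraries (SD, n = 5 each), so plain CPM gives lower top R3 levels than scaled CPM does. Leaving out 1 library at a time gave 142 to 229 members, and 64 of the 171 were chosen every time.

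The edgeR quasi-likelihood test was run over 20284 genes, and a call needed an adjusted p (Benjamini-Hochberg) below 0.05. All 171 members passed the filter on low counts. Counts of members called under other fits, where no share of all genes stands beside them, show dependence on the fit only. Their log2 fold changes, R3 over R1, had medians of −0.78 in top, −0.96 in middle and −1.15 in bottom leaves, beside 0.00, −0.01 and 0.00 over all genes. Lower at R3 were called 21 members in top, 41 in middle and 122 in bottom leaves, beside 0.759%, 1.42% and 8.53% of all genes tested. Of the 96 members that also met the rule on TMM-scaled sizes, 18, 23 and 65 were called in top, middle and bottom leaves. Of the other 75 members, 3, 18 and 57 were called. The median log2 fold changes in top leaves were −0.95 for the 96 and −0.62 for the 75. In all 3 positions 17 members were called lower, beside 0.281% of all genes, and 49 were called in none. These contrasts are those of the rule, and the counts are not a result about the members. In top leaves the count was 68 without top R3 replicate 2 and 70 on plain library totals, and 7 to 12 without top R1 replicate 1, 2, 3 or 4 or without top R3 replicate 3, 4 or 5. In middle leaves it was 91 without middle R3 replicate 1, and 9 to 27 without middle R1 replicate 1, 3 or 4 or middle R3 replicate 2, 3, 4 or 5. DESeq2 called 37 members in top and 83 in middle leaves, beside 4.29% and 7.15% of all genes in either direction.

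Whether the stage difference itself differed between positions was examined by the interaction of stage with position. In edgeR 0 members and 0% of all genes were called for any of the 3 pairs of positions. At an unadjusted p under 0.05 in edgeR there were 16 members (9.36%) for top versus bottom, beside 3089 of all genes (15.2%). For middle versus bottom there were 8 (4.68%) beside 927 (4.57%), and for top versus middle 1 (0.585%) beside 846 (4.17%). These shares of the members were near or below those of all genes. DESeq2 called 2, 0 and 0 members, among 470, 6 and 6 genes (2.32%, 0.0296% and 0.0296%). Without bottom R1 replicate 2, edgeR called 3 members for top versus bottom. The larger ratios in bottom leaves are therefore a description of means.

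The rule names no difference between positions within R3, but it used every R3 mean, each of which had to lie 1.6 times or more below its R1 mean. The calls and p-values between positions at R3 therefore come from the fit over all genes and describe the members, and are not independent of how these were chosen. Between top and bottom R3 leaves, 68 members were called higher and 11 lower, beside 26.1% and 25.8% of all genes tested. That is 39.8% of the members higher and 6.43% lower, and 79 in all, a smaller share than the 51.9% of all genes. The median log2 fold change of the members was 0.54, beside −0.02 over all genes, and 125 of 171 members (73.1%) lay above 0 beside 48.7% of all genes. On plain library totals 54 members were higher and 22 lower, with a median of 0.24 beside −0.33 over all genes. Both medians were lower than on TMM-scaled sizes, with that of the members still above that of all genes. The split between higher and lower counts therefore depends on the scaling. It also moved with how the members were chosen. Of the 96 members that also met the rule on TMM-scaled sizes, 26 were called higher and 9 lower, with a median of 0.29. Of the other 75 members, 42 were called higher and 2 lower, with a median of 0.87. Among the 88 rising genes, 7 were called higher and 17 lower in top R3 leaves.

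Between middle and bottom R3 leaves, 42 members were called higher and 0 lower, beside 12.8% and 9.75% of all genes. Their median log2 fold change was 0.42, beside −0.05 over all genes, and 137 members (80.1%) lay above 0 beside 46% of all genes. That median was 0.24 without middle R3 replicate 1, 0.63 without bottom R3 replicate 2, and 0.20 beside −0.23 over all genes on plain library totals. At an unadjusted p under 0.05 there were 62 members in either direction (36.3%), close to the 35.1% of all genes, and DESeq2 called 48 higher and 3 lower, beside 26.7% of all genes in either direction. Without middle R3 replicate 1, 23 members were called higher and 1 lower. On plain library totals the counts were 29 and 3. Of the 96 members kept under TMM-scaled sizes, 15 were called higher and 0 lower, and of the other 75, 27 and 0. Between top and middle R3 leaves, 2 members were called higher and 1 lower, beside 4.79% and 1.56% of all genes (6.35% together). DESeq2 called 12 members there, beside 11.4% of all genes. The edgeR count was 7, 11 and 12 without top R3 replicate 4, top R3 replicate 5 and middle R3 replicate 1, and 0 or 1 without top R3 replicate 1 or 2 or middle R3 replicate 4 or 5.

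**Figure D4:**
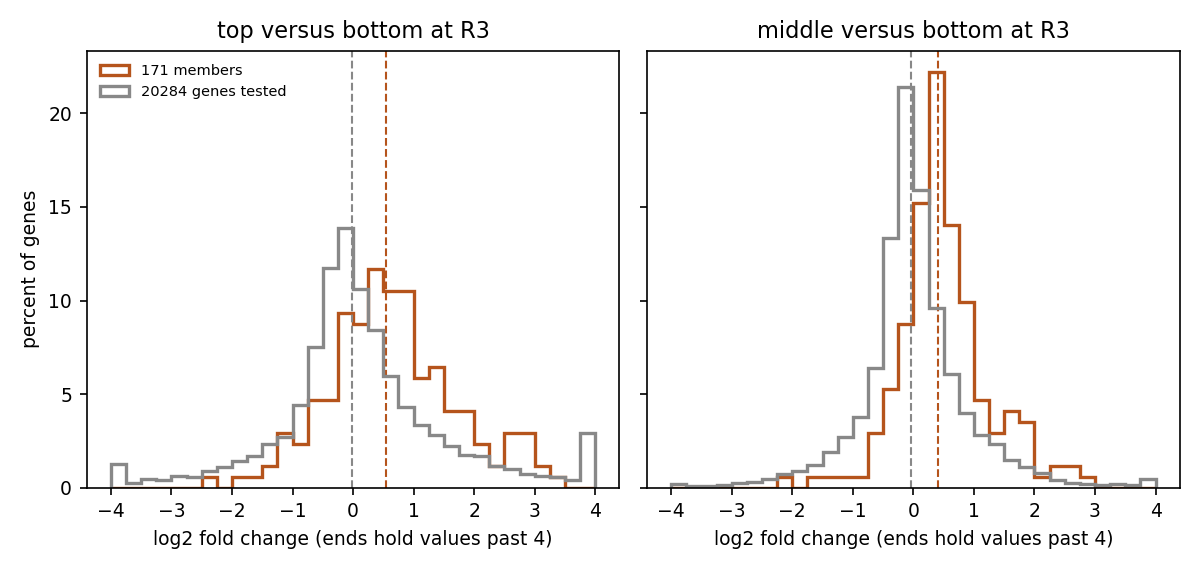
Distribution of log2 fold changes between positions at R3 (percent of genes per bin of 0.25 log2 units) for the 171 falling genes and for all 20284 genes tested; dashed lines are medians. The members' medians, 0.54 for top versus bottom and 0.42 for middle versus bottom, lie right of those of all genes, −0.02 and −0.05.

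The mean at R3 was lowest in bottom leaves for 93 members (54.4%), in top for 63 and in middle for 15. Among the 13707 genes even at R1 it was lowest in bottom leaves for 23.5% and in top for 62.3%, both on plain CPM. The largest R3 mean was at least 2.5 times the smallest for 37 members (21.6%), beside 11.1% of the 13707, and the medians of that ratio were 1.56 and 1.49. At R1, where the rule kept the means close, 37 members were called higher and 5 lower in top than in bottom leaves, beside 22.2% and 20.8% of all genes. On plain library totals the R1 split was 28 and 15, and without bottom R1 replicate 2 or 3 the count in all was 26 or 27. Between middle and bottom R1 leaves, 5 members were called higher and 0 lower, beside 5% and 2.79% of all genes (7.79% together). DESeq2 called 12, beside 12.7% of all genes. Same-numbered middle and bottom R1 libraries deviated together, and with the replicate number as a block the edgeR count was 10. With no block it was 16 without bottom R1 replicate 4, and 1 to 3 without bottom R1 replicate 1, 2 or 3 or middle R1 replicate 1, 3 or 4. Between top and middle R1 leaves, 2 were called higher and 1 lower, beside 6.8% and 4.65% (11.5% together), and DESeq2 called 6, beside 17%. A fit of the compared groups alone called 12 higher and 12 lower, and a replicate block within each stage called 5 higher and 8 lower. The share of all genes called under these fits is not given, so nothing about the members is read from them. The edgeR count was 5 without middle R1 replicate 1, 6 without top R1 replicate 5, and 1 without top R1 replicate 1, 2 or 3 or middle R1 replicate 2, 3 or 5.

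Vigun03g214200 and Vigun11g024900 had the largest positive differences between top and bottom R3 leaves among called members with a mean of at least 5 CPM. Vigun03g214200, with 2 exons on chromosome 3 (35600600 to 35603149, minus strand), had 18, 15.2, 32.1, 30.3 and 16.3 CPM in top R3 leaves, 11.6, 13.6, 21.4, 18.8 and 9.07 CPM in middle R3 and 2.52, 2.9, 3.804, 4.89 and 2.33 CPM in bottom R3. Every top and middle library lay above every bottom library. The log2 fold change of Vigun03g214200, top over bottom, was 3.06 ± 0.40, with an adjusted p of 1.6e-06 in edgeR. Its R1 levels were 39.3, 20.1, 40.4, 36.6 and 45.01 CPM in top R1 and 23.6, 6.77, 9.82, 27.02 and 12.3 CPM in bottom R1 leaves, so the groups at R1 overlapped. Vigun11g024900, with 6 exons on chromosome 11 (3240599 to 3244638, plus strand), has exons that overlap another gene model, which makes its counts uncertain. It had 5.83, 16.5, 6.702, 4.98 and 4.67 CPM in top R3 and 1.89, 1.57, 1.04, 0.403 and 0.481 CPM in bottom R3 leaves. Top R3 replicate 2 stood far above the other top R3 libraries, and the groups did not overlap. Top over bottom, its log2 fold change was 3.11 ± 0.52, with an edgeR adjusted p of 3.0e-05.

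Among the members called lower in top than in bottom R3 leaves, Vigun09g140300 and Vigun06g183100 differed most of those with a mean of at least 5 CPM. Vigun09g140300, with 9 exons on chromosome 9 (30219561 to 30225895, minus strand), had 17.01, 26.5, 11.7, 10.3 and 19.3 CPM in top R3 and 165, 289, 47.03, 16.98 and 25.8 CPM in bottom R3 leaves. Bottom R3 replicates 1 and 2 carried the difference, while bottom R3 replicates 4 and 5 lay within the top R3 range. The log2 fold change of Vigun09g140300 was −2.38 ± 0.64 with an edgeR adjusted p of 0.0031, and without bottom R3 replicate 2 it was −1.72 with an adjusted p of 0.021. Vigun06g183100, with 8 exons on chromosome 6 (30268783 to 30275568, minus strand), had 11.01, 4.91, 3.19, 1.58 and 1.19 CPM in top R3 and 21.4, 39.5, 9.61, 8.17 and 12.4 CPM in bottom R3 leaves. Top R3 replicate 1 was the 1 top library inside the bottom range. For Vigun06g183100 the log2 fold change was −1.75 ± 0.49 with an edgeR adjusted p of 0.0045. It was −2.44 without top R3 replicate 1, and −1.71 with an adjusted p of 0.059 in a fit of the compared groups alone.

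Middle over bottom at R3, Vigun01g086500 and Vigun09g163900 had the largest differences among called members with a mean of at least 5 CPM. Vigun09g163900, with 5 exons on chromosome 9 (33190756 to 33193464, plus strand), had 19.9, 13.02, 9.502, 3.27 and 8.13 CPM in middle R3 and 2.76, 1.81, 3.18, 1.15 and 2.17 CPM in bottom R3 leaves. All middle libraries were above all bottom libraries, with middle R3 replicate 4 nearest to them. The log2 fold change of Vigun09g163900 was 2.51 ± 0.50, with an edgeR adjusted p of 0.00073. Vigun01g086500, with 3 exons on chromosome 1 (24371020 to 24373325, minus strand), had 37.5, 28.7, 11.9, 3.35 and 7.85 CPM in middle R3 and 6.47, 5.68, 4.63, 0.575 and 1.04 CPM in bottom R3 leaves, and these groups overlapped. For Vigun01g086500 the log2 fold change was 2.52 ± 0.77 with an edgeR adjusted p of 0.020. Without middle R3 replicate 1 it was 1.97 (adjusted p 0.083), without bottom R3 replicate 5 it was 2.28 (0.052), and in a fit of the compared groups alone 2.54 (0.056).

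Top over middle at R3, the 2 members called higher were Vigun10g029300 and Vigun01g024500. Vigun01g024500 is the longer, with 27 exons across 2674108 to 2723097 of chromosome 1 on the minus strand. It had 20.8, 24.4, 16.02, 15.9 and 19.04 CPM in top R3, 17.7, 10.8, 12.7, 10.6 and 10.2 CPM in middle R3 and 5.91, 6.22, 5.88, 5.01 and 5.696 CPM in bottom R3 leaves. The bottom values were tightly grouped and below all others, while top and middle overlapped through middle R3 replicate 1. The log2 fold change of Vigun01g024500 was 2.04 ± 0.20 for top over bottom (edgeR adjusted p 6.0e-08) and 0.73 ± 0.20 for top over middle (edgeR adjusted p 0.031). Vigun10g029300, with 14 exons on chromosome 10 (3690134 to 3695282, minus strand), had 116, 100.5, 46.6, 38.05 and 34.3 CPM in top R3 and 41.8, 32.1, 38.8, 25.1 and 30.6 CPM in middle R3 leaves. Top R3 replicates 1 and 2 were far above the rest, and replicates 4 and 5 lay within the middle R3 range. The log2 fold change of Vigun10g029300, top over middle, was 1.09 ± 0.26, with an edgeR adjusted p of 0.019. Both calls were close to the threshold. For Vigun10g029300 the log2 fold change was 0.81 without top R3 replicate 1 (adjusted p 0.062) and 0.90 without top R3 replicate 2 (0.087). It was 0.96 and 1.05 without middle R3 replicate 4 and without middle R3 replicate 5 (0.069 and 0.053). For Vigun01g024500 the log2 fold change was 0.71 without top R3 replicate 1 (adjusted p 0.063), 0.63 without top R3 replicate 2 (0.12), and 0.64 to 0.70 without middle R3 replicate 2, 3, 4 or 5 (0.063 to 0.10). In a fit of the compared groups alone the folds were 1.11 for Vigun10g029300 (adjusted p 0.18) and 0.75 for Vigun01g024500 (0.16). The 1 member called lower there, Vigun08g024600, had a mean of 4.48 CPM and was named after its values were seen. It had 1.17, 1.05, 0.409, 0.949 and 1.19 CPM in top R3 and 6.95, 3.61, 2.38, 3.87 and 1.796 CPM in middle R3 leaves, a log2 fold change of −1.88 ± 0.48.

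The members moved together from library to library within groups. For each member the deviations of log2 CPM from its group means were correlated with the mean deviation of the other members over the 30 libraries. The median r was 0.61 (range −0.40 to 0.92). For the 13536 other genes even at R1 the median r with the members was −0.03, and for the 88 rising genes it was −0.38. The rising genes had a median r of 0.58 among themselves. These are descriptions across genes of 1 set of libraries, which share depth and scaling and from which the members were chosen. The value for the other genes even at R1 is with the members and not among themselves, so it is not a like comparison.

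In gene structure, which the rule did not use, single-exon models were 29 of 171 members (17%), beside 8.32% of the 13707 genes even at R1. Models of 15 or more exons were 21 members (12.3%), beside 9.45%. The 2 to 5 exon class held 68 members (39.8%) beside 40.3%, and the 6 to 14 exon class held 53 (31%) beside 41.9%. Of the 88 rising genes, 16 (18.2%) were single-exon models and 0 had 15 or more exons. Median summed exon length was 2344 bases in members, 1740 in rising genes and 2050 in the 13707. Level, unlike structure, was used by the rule. Members had a median of 16.9 CPM, or 6.91 CPM per kb of exon, beside 23.9 CPM and 11.6 CPM per kb for the 13707. The exons of 9 members (5.26%) overlap another gene model, beside 4.01%, and counts of those are uncertain.

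**Figure D5:**
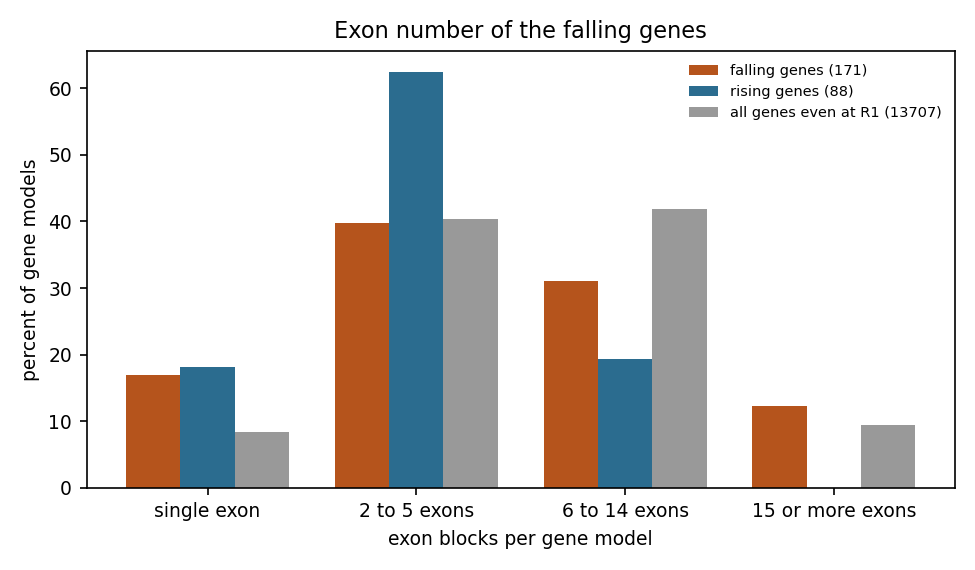
Percent of gene models in 4 classes of exon number, for the 171 falling genes, the 88 rising genes and all 13707 genes even at R1; bars start at 0. Single-exon models make up 17%, 18.2% and 8.32%, and models of 15 or more exons 12.3%, 0% and 9.45%.

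The members lay on all 11 chromosomes. Chromosome 3 held 31 (18.1%, beside 16.6% of the 13707), chromosome 4 held 17 (9.94% beside 6.19%) and chromosome 1 held 11 (6.43% beside 9.32%). Of the neighbouring genes of members, counting genes even at R1, 6 of 169 (3.55%) were members, beside 1.17% for all such genes. They form 3 pairs. Vigun04g059000 and Vigun04g059100 are minus-strand models of 2 exons each on chromosome 4, at 5898109 to 5899969 and 5911531 to 5913513. Their top R3 levels were 0.874, 14.2, 2.78, 4.43 and 2.296 CPM for Vigun04g059000 and 7.57, 16.6, 6.54, 8.62 and 6.44 CPM for Vigun04g059100. Both were highest in top R3 replicate 2. Their top R1 levels were 13.2, 17.7, 10.8, 10.6 and 1.59 CPM for Vigun04g059000 and 32.7, 15.6, 17.1, 15.4 and 8.12 CPM for Vigun04g059100, with replicate 5 lowest in both. Reads could be shared if these neighbouring models are alike in sequence, which was not tested.

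Vigun04g111500 and Vigun04g111600 lie on the minus strand of chromosome 4, at 28012409 to 28014455 and 28015391 to 28021322. Vigun04g111500 had 49.6, 32.1, 14.03, 2.23 and 14.1 CPM in middle R3 and 32.4, 85.5, 91.3, 96.6 and 115 CPM in middle R1 leaves. Vigun04g111600 had 14.3, 10.4, 6.83, 6.69 and 8.79 CPM in middle R3 and 16.7, 14.2, 15.98, 17.2 and 14.9 CPM in middle R1 leaves. The first varied widely between libraries and overlapped through R3 replicate 1, and the second varied little at R1 and overlapped only through R3 replicate 1. At R3 Vigun04g111600 was higher in top than in bottom leaves, by 1.77 ± 0.24 on the log2 scale (edgeR adjusted p 2.6e-06), whereas Vigun04g111500 gave −1.07 ± 0.76 (adjusted p 0.24). Vigun11g135100 (34445171 to 34448017, plus strand) and Vigun11g135200 (34453998 to 34458126, minus strand) are neighbours on chromosome 11. In bottom R3 leaves Vigun11g135100 had 20.3, 30.99, 12.4, 10.01 and 11.7 CPM, and in bottom R1 28.5, 30.1, 34.9, 36.6 and 22.3 CPM. Vigun11g135200 had 11.4, 26.1, 13.9, 8.75 and 9.31 CPM in bottom R3 and 38.3, 29.1, 24.6, 23.3 and 12.7 CPM in bottom R1 leaves. Bottom R3 replicate 2 was the highest R3 library in both, and in both it lay within the R1 range.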

How the data were processed

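The authors deposited raw counts per gene for 30 leaf libraries, with each gene's exons, strand and length per the file headers. The tools DESeq2, featureCounts and HISAT2 appear, with no version, per the submitters' processing notes. No source used here gives the build, the strand setting or how shared reads were handled. Every count column matched 1 sample, and 0 were left over. The deposited table of normalized counts was not used.

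Members were found on plain CPM. The members and lists were chosen with earlier results of these data known. Tests used edgeR 4.0.16 in R 4.3.3 (filterByExpr by group, 20284 genes, TMM, quasi-likelihood, 1 model of all 6 groups with 24 residual df, Benjamini-Hochberg over all genes), with 12 contrasts. Standard errors beside log2 fold changes (± SE) are the fold change over the root of F. Levels are plain CPM, and log2 fold changes are on TMM-scaled sizes. Scores used a prior count of 2. DESeq2 1.42.0 and the other alternatives are given in the closing section. The limit of 3 counts behind a 0 covers counting error only. On counts simulated for top versus bottom at R3, with 20284 genes, edgeR recovered 4%, 22%, 90% and 100% of genes changed 1.5, 2, 4 and 8-fold, with 2.7% of its calls false. In that simulation few genes were changed, all of them above a low count, and the others were equal between groups. In the measured contrast 51.9% of genes were called, so these rates do not carry over to it.

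Exons are merged exon blocks. None of the identifiers (0) matched the RefSeq table (34292 rows), so lists and cell type markers by product name were not analysed here. Named members followed a rule: those with the highest mean CPM, the largest ratios per position and over all 3, those nearest the limit, the largest differences between positions at R3 among called members with a mean of at least 5 CPM, those with the highest CPM without overlap, and neighbouring members. No library was a copy: chi-square per degree of freedom was 16.6 to 189 for the 60 pairs of replicates. Replicate numbers were shared across groups. Same-numbered libraries correlated in their deviations from group means by 0.19 to 0.52 in middle R1 and bottom R1, where every pair was over 0.1, and in no other pair of groups did all 5 exceed that, so the numbers were taken to pair those groups only. P-values measure the spread between these libraries.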

Additional observations from a re-analysis of the deposited data

Results flagged for a closer look

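In the score and 26 named members, 162 groups of 5 libraries were examined for a library that stands apart from the other 4 by Dixon's test (critical value 0.71). Chance flags about 1 in 20 groups, and 8 (4.94%) were flagged. Of these, 6 are top R3 replicate 2, the highest of its group each time. Vigun05g086400 had 5.433 CPM there against 3.321 to 3.629 in the other top R3 libraries. Vigun11g024900 had 16.47 CPM against 4.666 to 6.702, and Vigun11g160700 had 94.03 CPM against 57.6 to 65.48. Vigun04g059000 had 14.2 CPM against 0.8739 to 4.43, its neighbour Vigun04g059100 had 16.65 CPM against 6.444 to 8.624, and Vigun04g111600 had 14.37 CPM against 9.38 to 10.63. Without top R3 replicate 2 the rule chose 229 members, 164 of them among the 171. In top R1 replicate 1, Vigun10g163200 had 392.6 CPM against 328.3 to 345.5 in the other 4. In middle R1 replicate 1, Vigun09g163900 had 30.9 CPM against 15.53 to 19.57. What sets top R3 replicate 2 apart was not tested.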

How the results depend on the processing

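The set held 299 members at a ratio limit of 1.5, 34 at 2, 101 with TMM-scaled sizes and 92 with DESeq2 size factors, and 138 to 250 under the other settings tried. Leaving out 1 library at a time gave 142 to 229 members. The following are counts of members called. For settings other than DESeq2 the share of all genes called is not given, so nothing about the members is read from those counts. A 2-fold minimum gave 19 for R3 versus R1 in middle, 10 in top, 26 for middle versus bottom at R3 and 1 at R1. DESeq2 gave 83 for R3 versus R1 in middle, 37 in top, 12 for top versus middle at R3, 6 at R1, 2 for the top versus bottom interaction and, at R1, 12 for middle versus bottom. Fits of the compared groups alone gave 73, 21 and 6 for R3 versus R1 in bottom, middle and top, 1 and 24 for top versus middle at R3 and R1, and at R1 3 for middle versus bottom. Plain library totals gave 70 for R3 versus R1 in top, and 5 and 6 for top versus middle at R3 and R1.

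With the replicate number as a block the counts were 63 for R3 versus R1 in middle, 10 for middle versus bottom at R1, and 6 and 5 for top versus middle at R3 and R1. A block within each stage, chosen after seeing the data, gave 64 for middle versus bottom at R3, 14 for top versus middle at R3, 72 for top versus bottom at R1, 13 for top versus middle at R1 and 22 for middle versus bottom at R1. The block moved no other count by over 1.5 times. Within each stage it gave 104 for top versus bottom at R3, against 79 with no block. Whether same-numbered libraries outside middle R1 and bottom R1 share more than a number is not known. In top R1 and middle R1 they correlated by −0.02 to 0.47, and 4 libraries matched their own number best. In middle R1 and bottom R1 it was also 4, and in every other pair of groups it was fewer. No pair of groups had all 5 libraries match their own number best.

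Leaving out 1 library gave 89 to 142, 9 to 91 and 7 to 68 for R3 versus R1 in bottom, middle and top. It gave 66 to 84 for top versus bottom, 24 to 51 for middle versus bottom and 0 to 12 for top versus middle at R3. At R1 it gave 26 to 48, 1 to 16 and 1 to 6 for the same pairs, and 0 to 3, 0 to 0 and 0 to 0 for the interactions, in that order. For the 55 fold changes of named members, 888 alternatives gave 0 reversed directions. Most of these are R3 over R1 fold changes, whose direction the rule fixed, so nothing is read from that 0. Lost calls were counted only for the named differences between positions at R3, where there were 16. For the R3 over R1 fold changes only direction and size were compared, and 2 moved by more than the spread between libraries. The causes were not tested.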
